A study of Mus musculus with 6 samples.

Results

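The 8 genes of myeloid cytokine signalling described here were measured in the spleen of mice with an edited cyclin D3. They are Csf2ra, Csf2rb and Csf2rb2, which encode chains of the receptors for GM-CSF and interleukin-3, Il3ra and Il6ra, which encode the ligand-binding chains for interleukin-3 and interleukin-6, Il6st, which encodes the signalling chain gp130, Csf1r, the receptor for macrophage colony-stimulating factor, and Csf1, its ligand. The members were taken by gene symbol from the table of gene counts, 8 of 24906 listed genes. All 8 passed the filter on low values and were among the 15564 genes tested. Csf1 is a ligand and not a receptor, so the set is a set of receptors with 1 ligand.

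Spleen cells came from C57BL/6J mice between 12 and 16 months old, and their RNA was sequenced as 1 library per mouse. Mice of the D3TA group (n = 3) carry a Ccnd3 knock-in, made with CRISPR/Cas9, that replaces threonine 283 of cyclin D3 with alanine (T283A), and the line was bred in the heterozygous state. The WT group held 3 age-matched mice without the edit, and the labels give no allele or treatment that both groups carry. Per the series record, D3TA mice of this age have a severe myeloproliferative neoplasm, and the comparison addresses how their spleen differs from that of WT mice.

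Class I cytokine receptors have no kinase of their own. Binding of the cytokine brings an alpha chain, which recognises the ligand, together with a signalling chain that carries Janus kinases, and STAT factors then move to the nucleus. GM-CSF, interleukin-3 and interleukin-5 share the beta chain encoded by Csf2rb, and the mouse has an additional beta chain, encoded by Csf2rb2, that works with the interleukin-3 receptor alone. Interleukin-6 uses its alpha chain with gp130, which many other cytokines share. CSF1R is a receptor tyrosine kinase and the defining growth factor receptor of monocytes and macrophages. In the spleen these receptors are carried by monocytes, macrophages, neutrophils, basophils and their precursors, while gp130 is found on most cell types and Csf1 is also made by stromal cells.

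Between 14944622 and 19456838 reads per library fell on genes. All levels below are normalized read counts, listed in the order of replicates 1, 2 and 3 of a group. On this scale 3 reads are worth 2.59 to 3.36, so every library had far more than this minimum for each of the 8 genes. The libraries also differed apart from genotype. Y-linked transcripts marked D3TA-3 and WT-1, where Ddx3y was at 1116 and 1162 against 0 to 20.1 in the other 4, of which WT-2 was the highest. Below, the libraries with Y-linked transcripts are those with Ddx3y above 100. Hemoglobin transcripts took over 5% of reads in WT-3 as well as in D3TA-1 and D3TA-2. The number of genes at 0 was 8449 in WT-2 and 3193 to 5170 elsewhere. Defining transcripts of spleen cells were present in every library, with the summed level of 15 B cell genes between 139037 and 616147.

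The beta chain genes are near-identical neighbours, which matters for every count given for them. On chromosome 15 of GRCm38, Csf2rb (ENSMUSG00000071713) lies on the plus strand from 78325752 to 78353847, and Csf2rb2 (ENSMUSG00000071714) on the minus strand from 78282507 to 78305721. Over 2628 aligned coding bases of the GENCODE transcripts they shared 95.2%, and the longest identical run was 242 bases. Of all windows of 100 bases in the Csf2rb2 transcript, 7.20% occurred unchanged in a Csf2rb transcript, and of windows of 150 bases 3.59%. A read that falls in such a window cannot be placed on either gene by its sequence, so both counts are uncertain. These shares are of the Csf2rb2 transcript, and no share was computed for Csf2rb. The coding stretch of 75 bases where they differ most is shown for both, since such stretches are what separates the 2 counts. Capitals mark the 14 bases that differ, and each is written 5′ to 3′ along its own gene.
Csf2rb at chr15:78338905-78338979, plus strand: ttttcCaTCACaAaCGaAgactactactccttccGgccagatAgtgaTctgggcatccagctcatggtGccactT
Csf2rb2 at chr15:78294352-78294426, minus strand: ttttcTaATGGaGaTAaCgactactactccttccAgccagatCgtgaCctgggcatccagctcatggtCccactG

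Of the 8 genes, the alpha and beta chains of the GM-CSF receptor had the largest log2 differences between D3TA and WT, and neither passed the test. Csf2ra (ENSMUSG00000059326, chromosome 19, 61223957 to 61228429), the alpha chain that binds GM-CSF, had normalized counts of 1016, 646 and 660.4 in D3TA, against 599, 455 and 195 in WT. Every D3TA library lay above every WT library, and WT-3 was far below the rest. The means were 774 ± 210 and 417 ± 205 (SD, n = 3 each), and the log2 difference was 1.01 ± 0.42 (SE) with a 95% interval from 0.07 to 1.94. The unadjusted p was 0.0379 and the adjusted p, from limma over all genes tested, was 0.468.

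Csf2rb, the shared beta chain, had counts of 1462, 1305 and 1870 in D3TA, against 1303, 797 and 507 in WT. The groups did not overlap, but D3TA-2 and WT-1 differed by only a few counts, and the means were 1546 ± 291 and 869 ± 403 (SD, n = 3 each). On the log2 scale Csf2rb differed by 0.92 ± 0.36 (SE), with a 95% interval from 0.11 to 1.73 and an adjusted p of 0.444 in limma. These were 2 of 8 members with all 3 D3TA values above all 3 WT values, an order found for 8.18% of all tested genes, and 0 of 8 had the opposite order, found for 6.84%. In the plot of counts by library, Csf2ra was highest in D3TA-1 whereas Csf2rb was highest in D3TA-3.

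**Figure D1:**
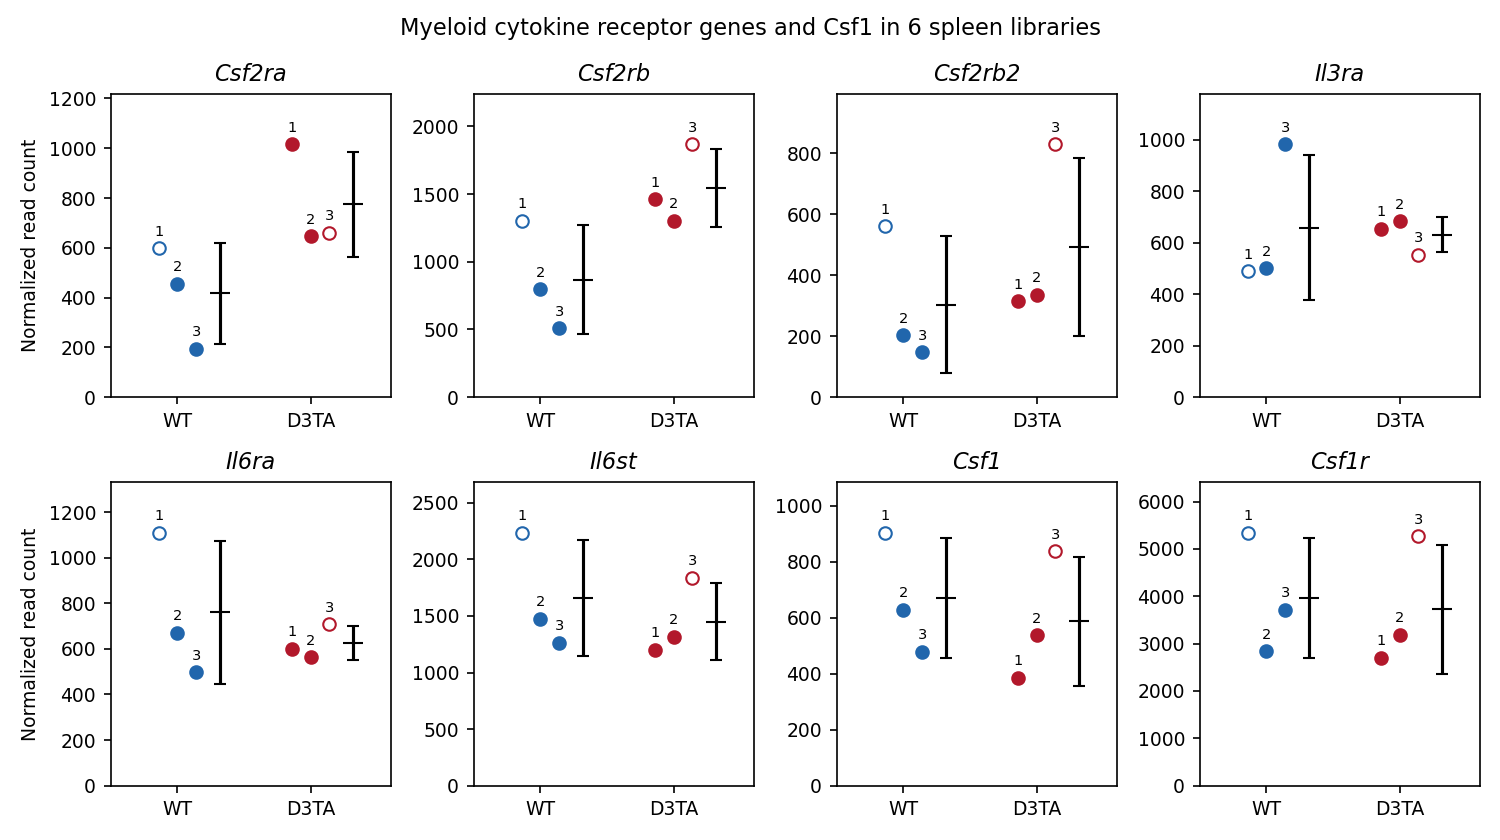
Normalized read counts (vertical axes, from 0) of the 8 genes in each library, with WT in blue and D3TA in red, the replicate number above each point, and mean ± SD beside each group. Open circles are the libraries with Y-linked transcripts, D3TA-3 and WT-1. The groups are apart for Csf2ra and Csf2rb and overlap for the other 6 genes.

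Csf2rb2, the beta chain that serves interleukin-3 alone, was at 315, 336 and 831 in D3TA, against 562, 204 and 147 in WT. WT-1 lay above both D3TA-1 and D3TA-2, so the groups overlapped, with means of 494 ± 292 and 304 ± 225 (SD, n = 3 each). The log2 difference was 0.79 ± 0.54 (SE), with an interval from -0.40 to 1.99 and an adjusted p of 0.665 in limma. It was 0.34 without D3TA-3 and 1.36 without WT-1. Because reads can be shared, the sum of both beta chain genes was also formed. It was 1777, 1641 and 2700.4 in D3TA, against 1865, 1001 and 654 in WT, which overlap.

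The balance between the beta chains did not differ detectably by genotype. Csf2rb2 counts were 0.215, 0.258 and 0.444 of Csf2rb counts in D3TA, against 0.431, 0.256 and 0.290 in WT. The ratio was highest in D3TA-3 and WT-1, the libraries with Y-linked transcripts. The log2 ratio was 0.13 lower in D3TA (-0.13), with p = 0.8 in a 2-sided exact permutation test, whose smallest possible p with 3 against 3 is 0.1. The alpha to beta ratio of the GM-CSF receptor was 0.695, 0.495 and 0.353 in D3TA, against 0.460, 0.572 and 0.385 in WT. It overlapped between groups too, with p = 0.9 in the exact permutation test. In all, 6 ratios were computed, of which that of Csf2rb2 to Csf2rb was planned and the other 5 were chosen after the values were seen. Their smallest adjusted p was 0.6.

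All D3TA values of Csf2ra and Csf2rb lay above all WT values, so each pairing of libraries had to give a difference above 0. Only the size of the difference could vary. Between D3TA-1 and D3TA-2 on one side and WT-2 and WT-3 on the other, the log2 difference was 1.44 for Csf2ra and 1.12 for Csf2rb. Between D3TA-3 and WT-1 it was 0.14 and 0.52. Among libraries rich in hemoglobin transcripts it was 2.05 and 1.44, and among those poor in them 0.34 and 0.88. The former rests on WT-3 alone for WT, and the latter on D3TA-3 alone for D3TA. Without WT-3 the log2 differences were 0.53 for Csf2ra and 0.58 for Csf2rb.

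Neutrophil transcripts lay higher in D3TA alongside these receptor chains. The summed level of 20 neutrophil genes was 89376 to 501070 in D3TA and 14398 to 31198 in WT, and 20 of 20 lay above 0 on the log2 scale, with 0 called in limma. Among them Mmp8 was at 0 in at least 1 library. The sum was lowest, within D3TA, in D3TA-3, where Csf2rb and Csf2rb2 were highest. It was highest in D3TA-1, where Csf2ra was highest. Of 15 monocyte genes 9 lay above 0, 5 had all D3TA values above WT, 2 all below, and 8 an unadjusted p under 0.05, with 0 called in limma. The shares of all tested genes were 54.5%, 8.18%, 6.84% and 9.91% in that order. Their summed level, 54983 to 87621 in D3TA and 59243 to 68749 in WT, is mostly that of Lyz2 (36426.5 to 69592). Among those above, named after their values were seen, Ly6c2 was at 3959.8 to 5573 in D3TA and 1638 to 2479 in WT, and Ccr2 at 905 to 1617 and 236 to 572. The part of these cells in the receptor values was not tested. In bulk RNA of spleen cells, more or fewer cells of a type and more or less RNA per cell cannot be told apart.

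The promoters of Csf2ra and Csf2rb2 are shown because both chains had higher means in D3TA, and because genes of this receptor family are known targets of the myeloid factors PU.1 and C/EBP. RefSeq promoter sequences on GRCm38.p6 matched 6 of the 8 genes. There was none for Csf1r or Csf2rb, so these were not searched. For the others, the 250 bases before the start site were searched on both strands. The motifs were GAGGAA (PU.1 and other ETS factors), TTGCNNAA (C/EBP), TTCNNNGAA (STAT) and, for the GATA family of factors, AGATAA. Capitals mark matches.
Csf2ra at chr19:61228419-61228668, minus strand: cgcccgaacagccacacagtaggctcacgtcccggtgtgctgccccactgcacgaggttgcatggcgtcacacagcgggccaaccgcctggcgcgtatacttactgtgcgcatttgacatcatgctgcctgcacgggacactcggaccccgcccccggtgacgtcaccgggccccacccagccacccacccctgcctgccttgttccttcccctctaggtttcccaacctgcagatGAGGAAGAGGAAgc
Csf2rb2 at chr15:78305722-78305971, minus strand: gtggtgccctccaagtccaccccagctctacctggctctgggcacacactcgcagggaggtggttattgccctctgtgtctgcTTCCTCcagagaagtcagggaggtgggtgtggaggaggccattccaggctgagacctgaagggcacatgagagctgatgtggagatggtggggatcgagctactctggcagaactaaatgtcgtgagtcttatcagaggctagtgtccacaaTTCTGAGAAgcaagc
Csf2ra held 2 adjoining GAGGAA matches, 14 and 8 bases before its start site. Csf2rb2 held 1 GAGGAA match 167 bases before its start site, on the other strand, and 1 TTCNNNGAA match 15 bases before it. Il6ra held 1 GAGGAA and 1 AGATAA match and Il3ra 1 TTGCNNAA match, while Csf1 and Il6st held none of the 4 motifs. Among 32851 promoters of the same length, 23.3% held GAGGAA, 9.56% TTGCNNAA, 7.02% TTCNNNGAA and 9.99% AGATAA. A match describes the letters and is not a site shown to be bound.

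The interleukin-3 alpha chain showed no difference by genotype beyond the spread. Il3ra (ENSMUSG00000068758, chromosome 14, 14346275 to 14356011) had counts of 654, 684 and 554 in D3TA, against 490.0, 500.3 and 983 in WT. WT-3 was the highest of the 6 libraries and the other WT libraries the lowest, so the WT values enclose all D3TA values. The means were 631 ± 68.0 and 658 ± 282 (SD, n = 3 each). Its log2 difference was 0.01 ± 0.34 (SE), with an interval from -0.73 to 0.76. That interval leaves room for a change of either sign. WT-3 also had the highest sum of 14 basophil, mast cell and eosinophil genes, at 4854 against 1294 to 1585 in the other WT libraries and 2119 to 3619 in D3TA. Most of the WT-3 sum came from the eosinophil genes Prg2 (2681) and Ccr3 (1322), named after their values were seen. The basophil protease genes Prss34 and Mcpt8, named likewise, went the other way, at 291 to 389.9 and 170.3 to 227 in D3TA against 41.4 to 124 and 16.8 to 65.0 in WT. Of the 14 genes 11 lay above 0, 6 had all D3TA values above WT and 1 all below, and limma called 0. Among all tested genes 54.5% lay above 0, 8.18% had all D3TA values above WT and 6.84% all below. In that list Fcer1a, Ms4a2 and Epx were at 0 in at least 1 library. The part of those cells in the Il3ra values was not tested. Without WT-3 the Il3ra log2 difference was 0.34, and under 12 of 22 alternative analyses it was below 0.

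Both chains of the interleukin-6 receptor overlapped between the groups. Il6ra (ENSMUSG00000027947, chromosome 3, 89864059 to 89913196), the chain that binds interleukin-6, was at 601, 564 and 709 in D3TA, against 1110.0, 671 and 498 in WT. WT-1 stood above all other libraries, and the means were 624 ± 75.4 and 759.7 ± 316 (SD, n = 3 each). The log2 difference was -0.21 ± 0.34 (SE), with an interval from -0.96 to 0.54 and an adjusted p of 0.869 in limma.

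Il6st (ENSMUSG00000021756, chromosome 13, 112464070 to 112510086), the gp130 signalling chain, was at 1201, 1314 and 1835 in D3TA, against 2236, 1475 and 1263 in WT. The highest value again was that of WT-1, followed by D3TA-3, and the group means were 1449.95 ± 338 and 1658 ± 512 (SD, n = 3 each). For Il6st the log2 difference was -0.17 ± 0.32 (SE), with an interval from -0.88 to 0.53. Il6ra counts were between 0.386 and 0.5004 of Il6st counts in D3TA and between 0.394 and 0.496 of them in WT, so the alpha to gp130 ratio spanned nearly the same range in both groups. Its log2 difference was -0.03, with p = 0.8 in the exact permutation test.

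The macrophage growth factor axis overlapped as well. Csf1r (ENSMUSG00000024621, chromosome 18) was at 2701, 3191 and 5269 in D3TA, against 5343, 2834 and 3719 in WT. D3TA-3 and WT-1 were nearly equal and above the other 4 libraries. The means were 3720.2 ± 1363 and 3965 ± 1273 (SD, n = 3 each). The log2 difference was -0.10 ± 0.35 (SE), with an interval from -0.89 to 0.68 and an adjusted p of 0.945 in limma. Hmgxb3, which shares 873 exonic bases with Csf1r on the other strand, was at 80.6 to 206 in the 6 libraries. The protocol describes no strand marking, so reads there cannot be divided between them. The antisense genes that overlap Il3ra and Il6ra were at 0 to 4.32 and at 0 to 22.2.

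Csf1 (ENSMUSG00000014599, chromosome 3, 107741048 to 107760469), the ligand of this receptor, was at 386, 537 and 838 in D3TA, against 904, 629 and 478 in WT. Again D3TA-3 and WT-1 were the highest, and the means were 587 ± 230 and 670.3 ± 216 (SD, n = 3 each). For Csf1 the log2 difference was -0.22 ± 0.37 (SE), with an interval from -1.03 to 0.60. Il34, which encodes the alternative ligand of CSF1R, was at 104, 187 and 351 in D3TA and 241, 245 and 282 in WT, with an adjusted p of 0.786 in limma. Csf1 counts were 0.129 to 0.222 of Csf1r counts over all 6 libraries.

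Summed markers of the cells that carry CSF1R did not separate the groups either. The summed level of 17 macrophage genes was 29325 to 61142 in D3TA and 43829 to 95030 in WT, and limma called 0. On the log2 scale 15 of 17 lay below 0 and 2 above, where 54.5% of all tested genes lay above 0. All D3TA values lay below WT for 1 of 17 and above for 0, against 6.84% and 8.18% of all tested genes. Stromal cells are a source of Csf1, and the summed level of 17 stromal and endothelial genes was 10796.5 to 25896 in D3TA and 19473.5 to 32539 in WT. It was lowest in D3TA-1, where Csf1 was lowest too, but highest in WT-2, where Csf1 was below its level in D3TA-3 and WT-1. No marker of those 2 lists was at 0 in any library, and their part in the values of Csf1 and Csf1r was not tested.

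**Figure D2:**
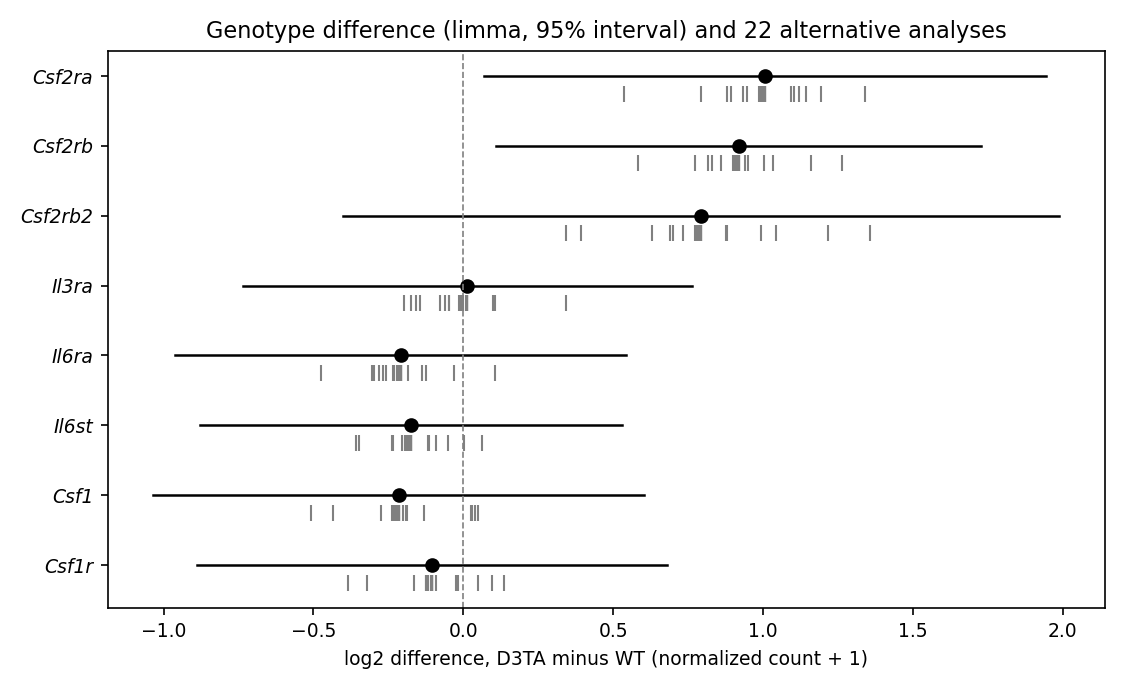
Log2 difference between D3TA and WT (horizontal axis, log2 of normalized count + 1) for the 8 genes. Black points and lines are the limma estimate and its 95% interval over 3 against 3 libraries, and grey ticks are the 22 alternative analyses of each gene. The intervals of Csf2ra and Csf2rb lie above 0 and the other 6 intervals include 0.

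Across the set, 0 of 8 genes had an adjusted p under 0.05, as did 0% of the 15564 genes tested with limma. At an unadjusted p under 0.05 there were 2 of the 8, Csf2ra and Csf2rb, against 9.91% of all genes (1542), or 6.08% for an unadjusted p under 0.05 with D3TA higher, as in both. The members with a log2 difference above 0 were 4 of 8, where all tested genes had 54.5% above 0 and a median of 0.06. The count of genes called over the whole table was 0 with edgeR's quasi-likelihood test (1611 at an unadjusted p under 0.05), 0 with limma-voom (1406) and 472, or 2.54%, with DESeq2. In DESeq2 0 of the 8 were called, where Csf2rb had an adjusted p of 0.374 and Csf2ra of 0.389. The limma fit called 0 of the 8 also without the filter on low values (0.177% of all genes called), without D3TA-3 (1.97%), with a term for Y-linked transcripts (0.0964%) and with a term for hemoglobin (0.0707%).

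A pattern by library, crossing the genotypes, recurred in the set. Csf1, Csf1r, Csf2rb2, Il6ra and Il6st, 5 of 8, had their highest values in D3TA-3 and WT-1, the libraries with Y-linked transcripts, against 9.58% of all tested genes. None of the 8 had its lowest values there, against 8.64% of all genes. Within D3TA, the log2 value of D3TA-3 exceeded the mean of the others by 0.88 for Csf1, 0.84 for Csf1r, 1.35 for Csf2rb2, 0.28 for Il6ra and 0.55 for Il6st. Within WT, WT-1 exceeded the others by 0.72, 0.72, 1.69, 0.94 and 0.71 in the same order. These libraries also shared a low hemoglobin share, as did WT-2, and with 1 such library per group no test was made. Because the groups are of equal size with 1 such library each, a term for Y-linked transcripts could not move the log2 differences. With that term in the limma fit, the adjusted p was 0.350 for Csf2rb, 0.412 for Csf2rb2 and 0.449 for Csf2ra.

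**Figure D3:**
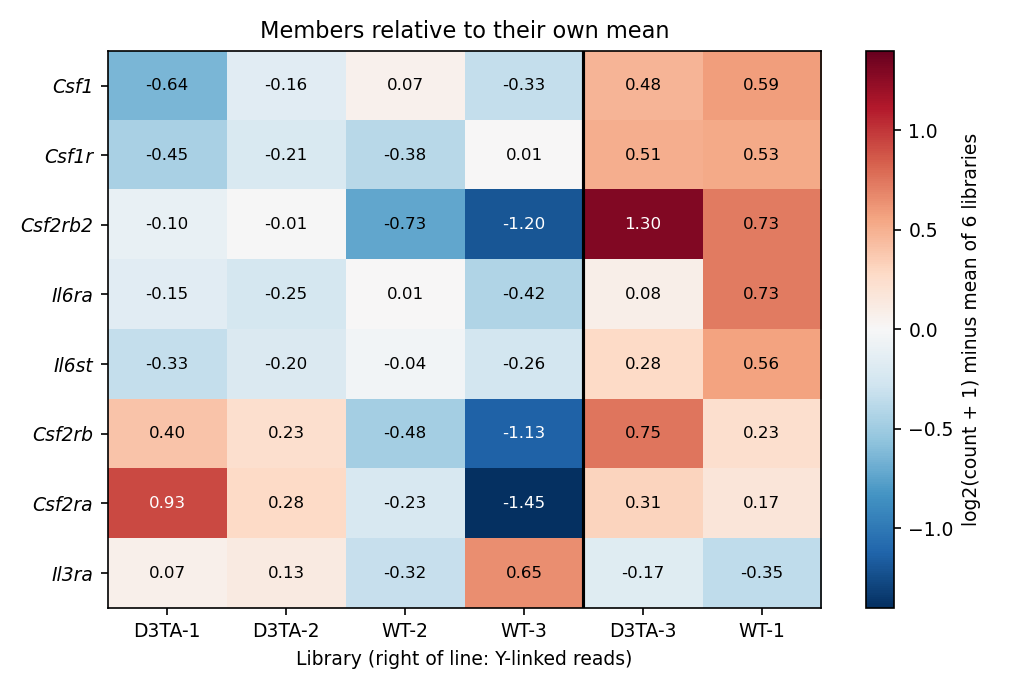
Log2(normalized count + 1) of each gene minus its mean over the 6 libraries, with red above and blue below that mean. Libraries to the right of the line, D3TA-3 and WT-1, carry Y-linked transcripts and have the highest values for the upper 5 genes, while Csf2ra is highest in D3TA-1 and Il3ra in WT-3.

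Levels between the genes were compared per kilobase of exon. In WT, Csf1r was the most abundant at 687 ± 220 normalized counts per kilobase (SD, n = 3), and its lowest WT library (491) was above the highest WT value of any other member. Il3ra (222 ± 94.9), Il6st (149 ± 46.1), Csf2ra (145 ± 71.3), Csf1 (127 ± 40.8), Csf2rb (119 ± 55.3), Il6ra (87.9 ± 36.5) and Csf2rb2 (64.2 ± 47.4) followed, and the WT ranges of each of these neighbours overlapped. In D3TA the order was Csf1r (644 ± 236), Csf2ra (269.7 ± 73.0), Il3ra (213 ± 22.9), Csf2rb (212 ± 40.1), Il6st (131 ± 30.5), Csf1 (111 ± 43.6), Csf2rb2 (104 ± 61.6) and Il6ra (72.3 ± 8.73). Csf2ra thus stood at place 4 in WT and place 2 in D3TA. Per kilobase of the longest coding transcript, Csf2ra stood at place 3 in WT and place 2 in D3TA, so its place depends partly on the gene model.

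Genes whose values followed each member most closely over the 6 libraries were taken as the 3 with the highest Pearson r among 10934 tested genes with a mean of at least 100. With 6 points and so many genes, such values are a description. Csf2ra was followed by Ube4a, Ago2 and Dync1li2 (r of 0.996, 0.994 and 0.993), and Csf2rb by Entpd7, Stau1 and Ppp2r5c (0.993, 0.989 and 0.982). Csf2rb2 was followed by Ecm1, Itgb2 and Plxna1 (0.997, 0.993 and 0.992). Itgb2 encodes the beta chain of the leukocyte integrins, and was at 5229 in D3TA-3 and 4654 in WT-1, against 2404 to 3355 in the other 4 libraries. Il3ra was followed by Cdpf1, Wdr20 and Guk1 (0.991, 0.991 and 0.988), each highest in WT-3. Il6ra was followed by Calcoco1, Zfp553 and Pip4k2b (0.986, 0.985 and 0.983), and Il6st by Gopc, Jup and B4galnt1 (0.992, 0.989 and 0.988). Csf1 was followed by Slc43a2, Mgrn1 and Pygb (0.993, 0.990 and 0.989), and Csf1r by Gtf2i, Rufy3 and Zfp26 (0.986, 0.981 and 0.980).

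Csf3r and Il5ra, other receptors of the same class, had larger log2 differences in size than any of the 8 genes, in opposite directions, and neither passed the limma test. Csf3r, the receptor for granulocyte colony-stimulating factor and a marker of neutrophils, was at 1502, 1165 and 749 in D3TA, against 518, 206 and 270 in WT. Its groups did not overlap, the log2 difference was 1.83 ± 0.40 (SE), a 3.56-fold higher level, and the adjusted p was 0.202 in limma. Il5ra, the interleukin-5 alpha chain, which pairs with the beta chain of Csf2rb and is also in the list of basophil, mast cell and eosinophil genes, was at 53.6, 61.6 and 30.3 in D3TA and at 169.1, 165.6 and 169.1 in WT. The D3TA values were far below the nearly equal WT values, by -1.83 ± 0.45 (SE) on the log2 scale, and the limma adjusted p was 0.232. DESeq2 called both Csf3r and Il5ra, along with Lrg1 and Pim1 among the pathway genes. Without D3TA-3, limma called 4 pathway genes, Csf3r, Lrg1, Pim1 and Epor, the erythropoietin receptor gene.

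Relative to Csf3r, the GM-CSF receptor chains had lower mean ratios in D3TA, with overlap. The ratio of Csf2rb to Csf3r was 0.974, 1.12 and 2.50 in D3TA, against 2.52, 3.87 and 1.88 in WT. The ratio of Csf2ra to Csf3r was 0.677, 0.555 and 0.882 in D3TA and 1.16, 2.21 and 0.724 in WT. The log2 differences of these ratios were -0.91 and -0.83, with p = 0.2 in the exact permutation test for each (0.6 adjusted over the 6 ratios). Both ratios were chosen after the values were seen, and the groups overlapped in each.

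Of 20 other receptors tested, 8 lay above 0 and 12 below, with a median of -0.23 against 0.06 for all genes. The limma fit called 0 of them, DESeq2 called Csf3r and Il5ra, and limma without D3TA-3 called Csf3r and Epor. Il11ra1 and Il27ra, receptor chains that use gp130, were named after their values were seen, because with Il5ra they were the 3 of 20 receptors whose D3TA values all lay below WT, an order found for 6.84% of all genes. Il11ra1 was at 650.03 to 749 in D3TA and 855 to 1398 in WT, and Il27ra at 420 to 697 in D3TA and 798 to 969 in WT. Csf3r was the 1 of 20 with all D3TA values above WT, against 8.18% of all genes.

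Of 20 other ligands of these receptor families 16 were listed and 10 tested, 5 above 0 and 5 below, with a median of -0.03 and 0 called in limma. Csf2, which encodes GM-CSF, had 4 reads over all 6 libraries, at 0 in 4 of them, so no difference was detectable at this depth. Il6 had 60 reads in all, at 9.64, 17.2 and 17.3 in D3TA, against 4.78, 0 and 8.70 in WT, and did not pass the filter. The groups did not overlap, but each value stands for few reads. Il3 was not analysed here. The ligands with the smallest p were Clcf1, a gp130 cytokine, at 346 ± 219 in D3TA and 520.3 ± 109 in WT, and Il7, at 133 ± 21.2 and 205 ± 59.6 (SD, n = 3 each), with adjusted p values of 0.620 and 0.658 in limma.

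Kinases and adaptors that act below these receptors lay on both sides of 0. Of 33 tested, 14 lay above 0 and 19 below, with a median of -0.03 and 0 called in limma. Grap, an adaptor related to Grb2 and abundant in lymphocytes, was at 768, 1884 and 1826 in D3TA and at 2692, 2802 and 4350.1 in WT, with an adjusted p of 0.361 in limma. Ptpn6, the phosphatase SHP-1 that restrains cytokine receptor signals, was at 3611, 4938 and 5036 in D3TA and at 7030.35, 6142 and 7350.02 in WT, with an adjusted p of 0.519. For both genes every D3TA library lay below every WT library. That order held for 3 of the 33, against 6.84% of all tested genes, and the opposite order for 0, against 8.18%. The summed level of 15 B cell genes was 139037 to 292662 in D3TA and 329678 to 616147 in WT, and 15 of 15 lay below 0 with 0 called in limma. Of these B cell genes, 10 had all D3TA values below WT and 0 all above. Among all tested genes 54.5% lay above 0. The part of these cells in the Grap and Ptpn6 values was not tested. Jak2, the kinase bound to the beta chain, was at 1119, 1070 and 1347 in D3TA and at 1181, 1230 and 937 in WT, and is named here for its role.

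Transcripts known to be induced by these receptors were split. Of 26 tested, 11 lay above 0 and 15 below, with a median of -0.12. The limma fit called 0 of them, while DESeq2 and limma without D3TA-3 each called Lrg1 and Pim1. Lrg1, a secreted glycoprotein induced by STAT3 and stored in neutrophil granules, was at 3798, 1954 and 1326 in D3TA and at 681, 448 and 810 in WT, with a log2 difference of 1.77 ± 0.41 (SE) and an adjusted p of 0.217 in limma. Fos, an immediate early factor, was at 137, 126 and 121 in D3TA and at 68.8, 54.8 and 31.9 in WT, with an adjusted p of 0.391. For both, every D3TA library lay above every WT library. That order held for 3 of the 26, against 8.18% of all tested genes. The opposite order held for 3, Pim2, Mcl1 and Junb, named after their values were seen, against 6.84%. Pim1, a kinase gene induced by STAT5 and named after its values were seen because DESeq2 called it, was at 8540, 3224 and 2027 in D3TA and at 1558, 1427 and 1707 in WT. Cish, a feedback inhibitor induced by STAT5 and named for its role, overlapped between the groups, at 935, 266 and 119 in D3TA and 157, 237 and 92.8 in WT. Among the listed transcription factors of myeloid receptor genes, 8 of 18 lay above 0 with 0 called in limma. All D3TA values lay above WT for 2 of 18, Cebpe and Gfi1, and below for 1, Fli1, named after their values were seen. Among all tested genes these orders were found for 8.18% and 6.84%. Cebpe was at 1867, 1234 and 217 in D3TA and at 48.7, 0 and 130 in WT. Spi1, which encodes PU.1 and is named for its role, was at 2938, 2294 and 2672 in D3TA and at 3243, 2788 and 3152 in WT.

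**Figure D4:**
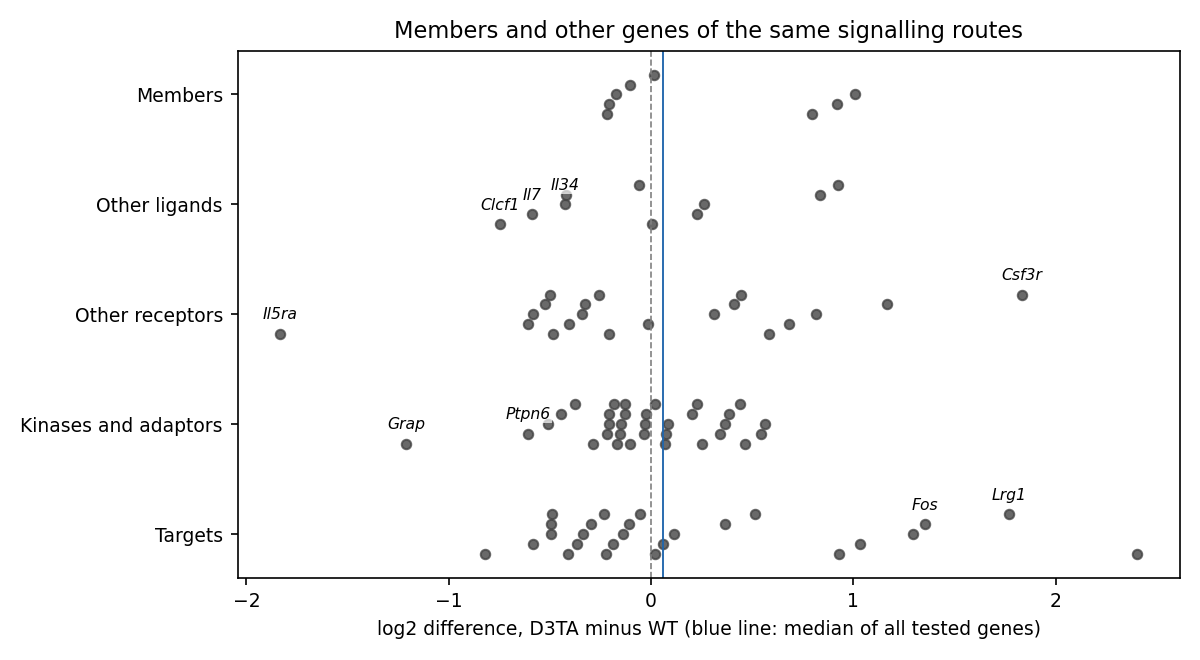
Log2 difference between D3TA and WT (horizontal axis) of the 8 genes and of the tested genes of 4 lists of the same signalling routes, 1 point per gene, with height within a row only spreading the points. The blue line is the median of all tested genes (0.06). Csf3r and Il5ra lie at 1.83 and -1.83, further from 0 than any of the 8 genes.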

How the data were processed

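Polyadenylated RNA of 6 spleens was captured on poly-T beads and primed with random hexamers, per the labels' protocols. HISAT2, Trim Galore, FastQC, CASAVA and DESeq2 appear in the submitters' processing notes with the build mm10 but no versions or roles, and the counting program is not given in the sources used here. The deposited values are a signal, gene counts that the authors had divided by 1 factor per library: 100% of 149436 values were whole multiples of a step per library within 0.001. Whole reads were recovered by that step and used for the count tests. Symbols and positions came from GENCODE M21 on GRCm38, which held 24860 of 24906 identifiers.

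For genes at 10 or more in at least 3 libraries (15564), limma 3.58.1 (trend, robust) was applied to log2(normalized count + 1), genotype as the factor, and 2-sided p-values adjusted by Benjamini-Hochberg. SE is limma's moderated error. That scale understates changes of low genes. The method was tested on simulated counts, with changes larger than those of the 8 genes. That run does not show whether changes of their size can be detected. Alternatives were other scalings, filters, pseudocounts of 0.5 and 5, edgeR 4.0.16, DESeq2 1.42.0, limma-voom, libraries left out, the replicate block, and terms for Y-linked transcripts (Ddx3y above 100) and hemoglobin (above 5%). Coding sequences were aligned with MAFFT 7.526. R 4.3.3 and Python 3.11.15 were used.

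Named genes were the 8 members, the 2 genes with the smallest p of each of 4 pathway lists, Csf3r, Il5ra, Il34, Csf2, Il3 and Il6, and the 3 most similar genes per member, and others are said to be chosen after their values were seen or for their role. The members and lists were chosen with earlier results of these data known. The series record gives 3 mice a group, so n counts mice.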

Additional observations from a re-analysis of the deposited data

How the results depend on the processing

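None of the 8 genes was called under any of 22 alternative analyses each, and Csf2ra (0.53 to 1.34), Csf2rb (0.58 to 1.26) and Csf2rb2 (0.34 to 1.36) stayed above 0 throughout. For Csf2ra and Csf2rb this was fixed in advance where libraries were only left out, since their groups did not overlap. The Y-linked term could not move any log2 difference. With 1 library left out, the log2 difference ranged from -0.51 to 0.050 for Csf1, -0.38 to 0.14 for Csf1r, -0.16 to 0.34 for Il3ra, -0.47 to 0.10 for Il6ra and -0.36 to 0.062 for Il6st, and that of the Csf2rb2 to Csf2rb ratio from -0.43 to 0.094. Il3ra (0.01) was at -0.00011 with TMM scaling, -0.047 with upper quartile scaling, -0.077 in edgeR, -0.0047 in limma-voom, -0.061 in DESeq2, -0.17 without both D3TA-1 and WT-2, -0.20 with the hemoglobin term and -0.0069 without immunoglobulin, T cell receptor and hemoglobin genes. Csf1 was at 0.029 without both D3TA-1 and WT-2, and with the hemoglobin term Csf1 was at 0.040, Csf1r at 0.048 and Il6st at 0.0034. The cause of these changes of sign was not tested. The count over all genes was 0 in the limma fit, 44 without the filter, 472 in DESeq2, 15 with the Y-linked term and 11 with the hemoglobin term, and 0 to 306 with 1 library left out, the highest without D3TA-3. The count of called pathway list genes was 4 in DESeq2 and 0 to 4 with 1 library left out. Same-numbered libraries of the 2 groups share only a number, with correlations of their deviations of -0.06, -0.0046 and -0.13. The replicate block, with 1 library of each group per number, could not move any log2 difference (1.01 for Csf2ra, 0.92 for Csf2rb). It called 0 genes. With 3 libraries a group the intervals given for each gene are wide, and changes inside them were not detectable.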
